A study of Mus musculus with 2 samples.

Results

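The Sox9-highest cultured cells were 454 of the 4543 cells of a cultured library of costal-cartilage-derived stem cells (CDSCs) that passed a cell filter, and 454 of the 15502 cells that passed it in the whole series. The filter asked of a barcode 500 genes or more, 5000 unique molecular identifiers (UMIs, which count captured transcripts) or more and no more than 10% of UMIs from mitochondrial genes. The members were chosen by their own Sox9 level, as the 10% of cells with the highest share of Sox9 UMIs among all their UMIs. They were set against the 632 cells of the same library that held 0 Sox9 UMIs. Levels below are UMI counts scaled to a fixed total (CPM) of the cells of a group summed together.

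The study isolated CDSCs by enzymatic digestion of rib cartilage from newborn mice, which were CD45.1 or ZsGreen animals on a C57BL/6J background, and sorted cells without CD45 and with CD51. The cultured CDSCs had been grown in medium with 10% serum to passages 2 to 3, and the primary CDSCs, sequenced without passage, were the only other library. The comparison of both libraries was made to find how cultured and primary CDSCs differ. Both libraries carry bone marrow as the tissue in their labels, and the number of animals pooled is given neither there nor in the methods. All cells compared below came from 1 culture, so the differences have no replicates behind them and no test was made.

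SOX9 is the transcription factor that commits mesenchymal cells to cartilage and keeps chondrocytes in their state. It works with its partners SOX5 and SOX6, and together they drive the genes of cartilage collagens and of aggrecan. Chondrocytes grown flat on plastic are known to lose these genes over passages, while contractile and fibroblast genes come up.

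**Figure D1:**
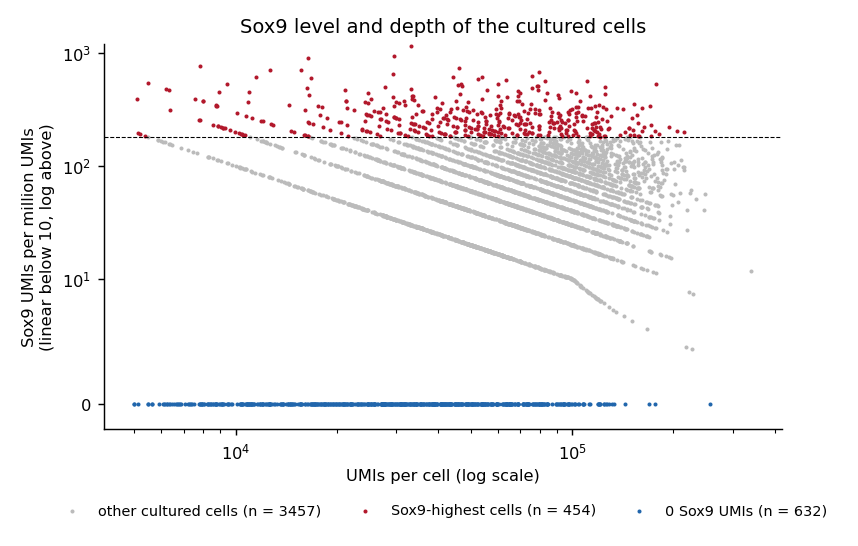
Each point is 1 cultured cell, with its UMIs on the horizontal axis (log scale) and its Sox9 level in CPM on the vertical axis (linear below 10, log above). The dashed line at 182 CPM is the lowest member, and the 632 cells with 0 Sox9 UMIs lie along the bottom at all depths.

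Sox9 (ENSMUSG00000000567, chromosome 11, 112782224 to 112787760 on GRCm38) was at 276 CPM (95% Poisson interval 270 to 282) in the members. Per cell it ran from 182 to 1148 CPM with a median of 248, on 1 to 94 Sox9 UMIs per cell with a median of 14. These values chose the members and are a description. The last cell inside the limit was at 182.392 CPM with 22 Sox9 UMIs, and the first outside was at 182.369 CPM with 15. All 4543 cultured cells together were at 81.3 CPM, and the 10959 primary cells that passed the same filter were at 1320 CPM, with a median of 1118 CPM per cell. The members, chosen for high Sox9, were at 20.9% of the summed primary level.

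The groups also differed in depth. The members had a median of 54211 UMIs per cell, the zero-Sox9 cells 31726 and all cultured cells 66411. Of the members, 52 had fewer than 5 Sox9 UMIs, so their place in the top 10% rests on few transcripts. At the Sox9 level of the whole library, a zero-Sox9 cell of median depth would be given 2.58 Sox9 UMIs. One at the 10th percentile of depth would be given 0.772. A count of 0 thus need not be an absence of Sox9, and this holds most for shallow cells. The plot of Sox9 level against depth shows both groups at all depths. Mitochondrial UMIs had a median of 2.58% in the members and 2.37% in the zero-Sox9 cells. Of the 32 barcodes found in both libraries, 12 passed the cultured filter, 0 were members and 2 were zero-Sox9 cells.

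Sox9 left out, 8801 genes reached 10 CPM in the members or in the zero-Sox9 cells. Of these, 350 were at least 1.5-fold higher in the members (3.98% of the genes compared) and 305 at least 1.5-fold lower (3.47%). The median log2 ratio over all 8801 genes was 0.05. A gene of a list is called higher or lower below when it passed this fold, which is a rule of size and no test. A gene that reached 10 CPM in 1 group only entered through the group where it is high, so such genes are counted apart below. Intervals are exact, at 95%, and cover counting error only.

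**Figure D2:**
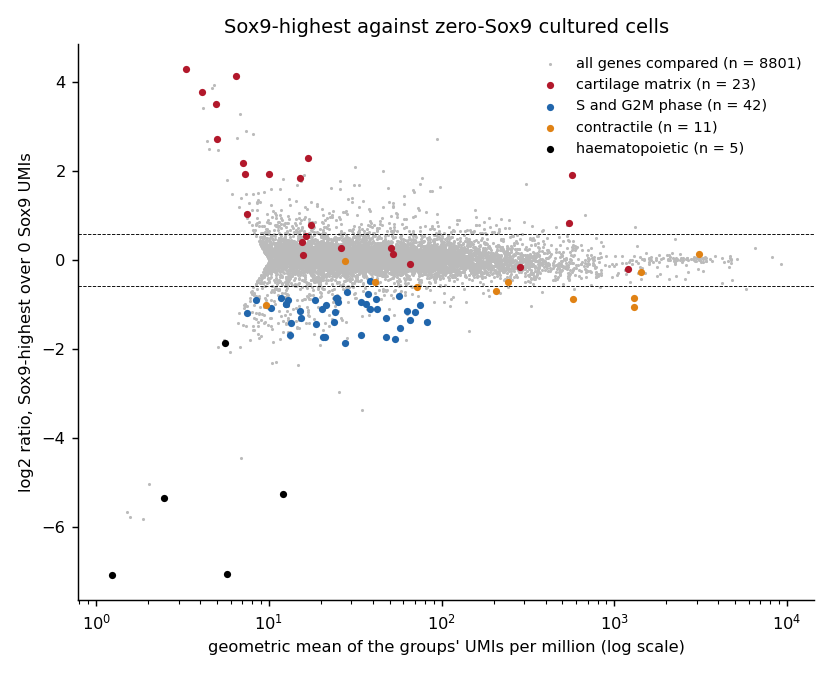
Each point is a gene, with the geometric mean of its levels in both groups on the horizontal axis (CPM, log scale) and the log2 ratio of the Sox9-highest over the zero-Sox9 cells on the vertical axis. Dashed lines mark 1.5-fold. Most of the 23 cartilage matrix genes lie above the upper line, but 3 collagens and 8 other matrix genes had reached 10 CPM in the Sox9-highest cells only. Of those at 10 CPM in both groups, 2 of 2 collagens and 1 of 10 other matrix genes lie above it. All but 1 of the S and G2M phase genes lie below the lower line, 5 of each phase having reached 10 CPM in the zero-Sox9 cells only.

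Of the 7 cartilage collagen genes, 2 reached 10 CPM in both groups, Col2a1 and Col11a1, and both were higher in the members. Another 3 reached it in the members only. Col2a1 (ENSMUSG00000022483, chromosome 15, 97975602 to 98004695), which encodes the chain of collagen II, the main fibre of cartilage, was at 1104 CPM (1091 to 1116) in the members and 292 CPM (285 to 298) in the zero-Sox9 cells, a log2 ratio of 1.92 (1.88 to 1.96). The median member was at 455 CPM and the median zero-Sox9 cell at 123 CPM, and the highest cells reached 16795 and 8126 CPM, so the groups overlapped widely. Col11a1 (chromosome 3, 114030540 to 114220718), a chain of collagen XI, which seeds the collagen II fibre, was at 725 CPM and 408 CPM, a log2 ratio of 0.83. Its per-cell medians were 526 and 280 CPM.

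The other cartilage collagens were rare in culture, and their levels were higher in the members than in the zero-Sox9 cells. Col9a1, a chain of collagen IX, which coats the fibre, was at 16.7 CPM (15.2 to 18.3) in the members and 1.46 CPM (1.03 to 2.02) in the zero-Sox9 cells, a log2 ratio of 3.51 (3.03 to 4.04). Col9a3, another chain, was at 15.2 and 1.11 CPM, a log2 ratio of 3.78 (3.23 to 4.39). Col27a1, a fibrillar collagen of cartilage, was at 12.8 and 1.94 CPM, a log2 ratio of 2.72. In the cultured cells outside the members Col9a1 was at 1.80 CPM, Col9a3 at 1.65 CPM and Col27a1 at 2.57 CPM. Col9a2 and Col11a2 stayed under 10 CPM, with 162 and 193 UMIs in the members against 3 and 6 in the zero-Sox9 cells. For Col9a2 the interval of the log2 ratio was 4.02 to 7.89.

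These rare transcripts came from few of the members. Col9a1 UMIs were found in 47 of 454 members, Col9a3 in 65 and Col27a1 in 99, and the median member held none of them. The 10 members richest in Col9a1 gave 70.7% of its UMIs and the 10 richest in Col9a3 gave 69.2%. Col2a1 was found in 433 members, the 10 richest giving 22.0%, and Col11a1 in 445, the 10 richest giving 13.7%. The UMIs of collagen IX were thus held by fewer members than those of collagen II and XI, whose UMIs were also found in 519 and 567 of the 632 zero-Sox9 cells.

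Of the 29 proteoglycan and accessory matrix genes, 10 reached 10 CPM in both groups, of which 1, Lum, was higher, 0 were lower and 9 lay within 1.5-fold. Another 8 reached it in the members only and were higher there. Cnmd (ENSMUSG00000022025, chromosome 14, 79637690 to 79662170), chondromodulin, which keeps vessels out of cartilage, was at 27.3 CPM (25.4 to 29.3) in the members and 1.54 CPM (1.10 to 2.11) in the zero-Sox9 cells, a log2 ratio of 4.15 (3.68 to 4.65). Acan (ENSMUSG00000030607, chromosome 7, 79053483 to 79115099), aggrecan, the large proteoglycan of cartilage, was at 14.7 CPM (13.4 to 16.2) and 0.751 CPM (0.452 to 1.17), a log2 ratio of 4.29 (3.63 to 5.04). Cnmd was found in 102 members and Acan in 50, the 10 richest members giving 48.8% and 61.5% of their UMIs. Hapln1, the link protein that ties aggrecan to hyaluronan, was at 19.6 and 5.06 CPM, a log2 ratio of 1.95.

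The remaining higher genes of this list were Cytl1, a secreted cytokine-like protein of cartilage, Susd5, Matn4, a matrilin, Smoc1, a calcium-binding matrix protein, Mia, a small secreted cartilage protein, and Lum, the proteoglycan lumican. Cytl1 was at 37.3 and 7.55 CPM, a log2 ratio of 2.30, with 70.5% of its member UMIs in 10 cells. The log2 ratios of the other genes were 2.18 for Susd5, 1.95 for Matn4, 1.84 for Smoc1, 1.04 for Mia and 0.79 for Lum. Matn4 UMIs came to 60.0% from 10 members, Mia UMIs to 25.6%.

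The abundant small proteoglycans lay within 1.5-fold. Bgn, biglycan, was at 1122 CPM in the members and 1277 CPM in the zero-Sox9 cells (log2 ratio -0.19), Prelp at 270 and 298 CPM (-0.15), and Dcn, decorin, at 63.7 and 67.2 CPM (-0.08). Comp, a pentameric matrix protein, had a log2 ratio of 0.27, Fmod, fibromodulin, 0.15, Prg4, the joint lubricant lubricin, 0.12, Matn2 0.42, Fbln7 0.55 and Smoc2 0.27. The summed level of the whole list was 1854 CPM in the members and 1856 CPM in the zero-Sox9 cells, Bgn making up the greater share of both.

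The 11 genes of this list under 10 CPM included several of the most cartilage-restricted ones. Ucma, a protein of resting cartilage, had 187 UMIs in the members and 4 in the zero-Sox9 cells, an interval of the log2 ratio of 4.01 to 7.28. Snorc, a chondrocyte membrane proteoglycan, had 52 and 2 UMIs (interval of the log2 ratio 2.62 to 7.63), and Scrg1 35 and 1 (2.40 to 10.31). Matn3 was at 57 and 29 UMIs, Epyc at 33 and 16, Vit at 10 and 5, and Cilp2 at 7 and 3. Chad, chondroadherin, had 6 and 0 UMIs, Matn1 and Cilp 1 and 0, and Clec3a 0 and 2, too few for any comparison.

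**Figure D3:**
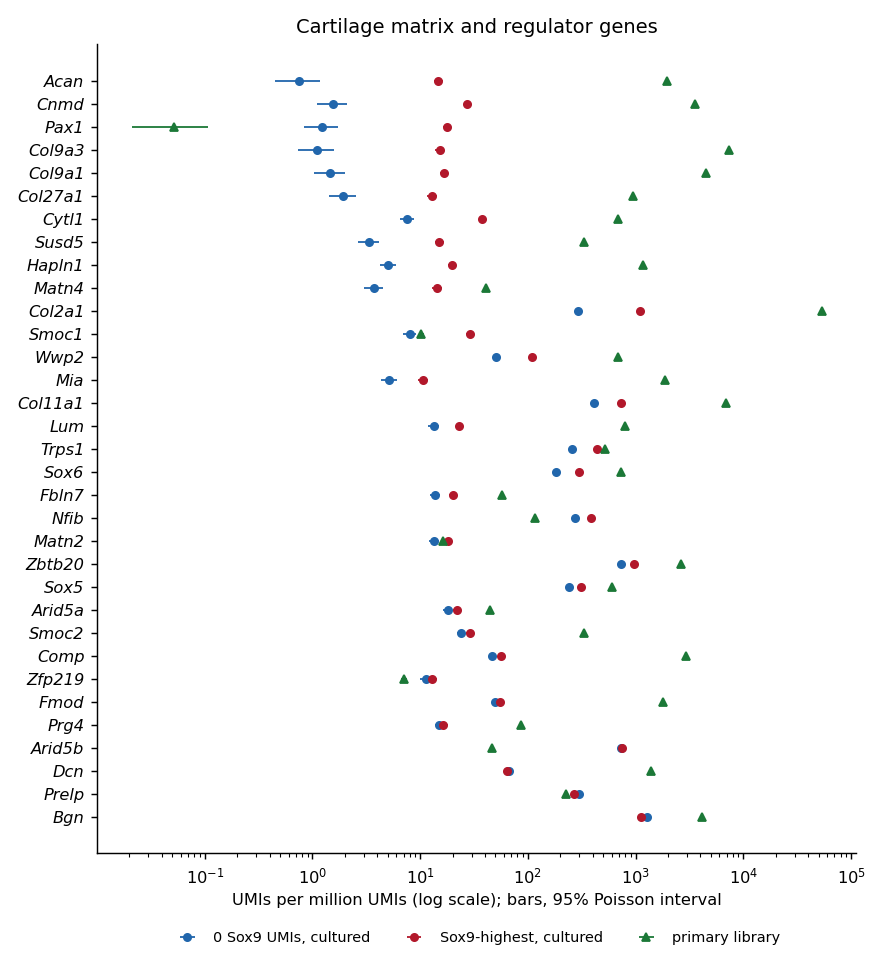
Cartilage matrix and regulator genes with at least 10 CPM in either cultured group are listed by their log2 ratio, with levels in CPM on a log axis and 95% Poisson intervals as bars. The zero-Sox9 cells are blue, the Sox9-highest cells red and the primary library green, and most matrix genes of the upper rows lie far to the right in the primary library, with Pax1 on the opposite side.

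Set against the primary library, the members' cartilage matrix was low. All 7 cartilage collagens summed to 1886 CPM in the members, 704 CPM in the zero-Sox9 cells and 81833 CPM in the primary cells. Col2a1 in the members was 2.06% of its primary level of 53561 CPM and Col11a1 10.6% of 6870 CPM. Acan was at 0.750% of 1965 CPM, Cnmd at 0.775% of 3523 CPM, Col9a1 at 0.367% of 4547 CPM and Ucma at 0.0974% of 6803 CPM. Hapln1 was at 1.68% and Cytl1 at 5.45%. Smoc1, of the same matrix list, was at 281% of its primary level. The 20.9% of Sox9 is not comparable with these values, since Sox9 chose the members. Both libraries differ in passage, depth and animals, which cannot be told apart. Y-linked genes of the sex-linked list summed to 247 CPM in the members and 4.26 CPM in the primary cells, and the reporter ZsGreen had 0 UMIs in the culture against 60988 among primary cells.

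Of the 16 partner and regulator genes of cartilage, 9 reached 10 CPM in both groups, of which 3 were higher, 0 lower and 6 within 1.5-fold. Pax1 reached it in the members only. Sox6 (chromosome 7, 115470872 to 116038796) was higher, at 299.95 CPM (294 to 306) in the members and 181 CPM (176 to 187) in the zero-Sox9 cells, a log2 ratio of 0.73 (0.67 to 0.78). Sox5 (chromosome 6, 143828425 to 144781977), its close relative, was at 314 and 239 CPM, a log2 ratio of 0.39 (0.34 to 0.44), under the fold. Against all other cultured cells the Sox6 ratio was 0.55. The per-cell medians were 228 and 114 CPM for Sox6 and 225 and 142 CPM for Sox5. Against the primary library the members held 40.8% of the Sox6 level and 51.7% of the Sox5 level.

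Wwp2 (chromosome 8, 107436365 to 107558595), a ubiquitin ligase whose gene hosts a cartilage microRNA and is known as a SOX9 target, was at 109 CPM (105 to 113) and 50.1 CPM (47.4 to 52.97), a log2 ratio of 1.12. Trps1, a zinc-finger factor of growing cartilage, was at 436 and 257 CPM, a log2 ratio of 0.76, and at 83.7% of its primary level. Pax1 (chromosome 2, 147361925 to 147393295), the paired-box factor that directs sclerotome cells to cartilage, was at 17.8 CPM (16.3 to 19.5) and 1.23 CPM (0.833 to 1.74), a log2 ratio of 3.86. Pax1 was found in 95 members and 17 zero-Sox9 cells. Unlike the matrix genes it was almost missing from the primary library, at 0.0521 CPM.

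The other regulators lay within 1.5-fold or were rare. Nfib had a log2 ratio of 0.49, Zbtb20 0.41, Arid5a 0.27, Zfp219 0.19 and Arid5b 0.05. Pax9 was under 10 CPM with 58 and 25 UMIs in the members and the zero-Sox9 cells. Foxa2 had 21 UMIs in each group, and Sox8, Foxa3, Nkx3-2 and Barx2 had at most 6. Of the other members of the Sox family, Sox4, a factor of progenitor cells, was at 646 and 442 CPM, a log2 ratio of 0.55, and 1 of 3 measured members of that list, Sox6, was higher.

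The promoters of cartilage genes that were at least 1.5-fold higher in the members were searched, since SOX9 and its partners bind DNA. RefSeq windows of 250 bases before the start (GRCm38.p6) were found for 13 of these 18 genes, and not for Col2a1, Col9a3, Trps1, Lum and Smoc1. Each was searched on both strands for 8 words of the SOX type, each of 7 letters. A word began with a pair of letters of which each could be A or T, and went on with CAAAG or, in the other 4 words, with CAATG, and a window with any of them was counted once. A word was found in 2 of the 13 (15.4%), Col9a1 and Sox6, and in 21.8% of all 32851 windows, so the share in these 13 genes was not above the share over all windows. Capitals mark the word found, at 186 bases before the start in Col9a1 and at 114 in Sox6. The Cnmd window held none and is given beside them as the gene with the largest fold among the genes at 20 CPM or more in either group. The windows are chr1:24177360-24177609 on the plus strand for Col9a1, chr7:116038745-116038994 on the minus strand for Sox6 and chr14:79662184-79662433 on the minus strand for Cnmd, each written along its gene from the far end to the start. A match is a description of letters and not a binding site.
Col9a1: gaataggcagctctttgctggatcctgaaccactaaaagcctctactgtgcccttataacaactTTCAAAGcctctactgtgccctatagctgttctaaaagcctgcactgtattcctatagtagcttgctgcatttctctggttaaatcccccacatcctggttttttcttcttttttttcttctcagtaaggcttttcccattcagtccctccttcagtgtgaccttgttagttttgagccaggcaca
Sox6: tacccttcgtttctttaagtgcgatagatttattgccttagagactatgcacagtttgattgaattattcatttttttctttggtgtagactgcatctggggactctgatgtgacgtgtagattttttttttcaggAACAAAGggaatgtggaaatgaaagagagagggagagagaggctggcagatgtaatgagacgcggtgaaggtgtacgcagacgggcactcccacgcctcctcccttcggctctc
Cnmd: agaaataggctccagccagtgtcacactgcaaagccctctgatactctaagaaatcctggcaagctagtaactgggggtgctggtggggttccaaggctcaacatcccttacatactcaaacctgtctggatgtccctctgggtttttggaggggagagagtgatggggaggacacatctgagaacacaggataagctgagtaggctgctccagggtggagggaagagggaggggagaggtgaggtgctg

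The highest genes included several outside the cartilage lists. The 12 highest genes by log2 ratio with at least 20 CPM in either group were Cnmd, Crispld1, Eya2, Nr5a2, Ptn, Cytl1, Barx1, Tnfrsf11b, Col2a1, Cdh13, Adamtsl3 and Smoc1. Ptn, Tnfrsf11b, Col2a1 and Adamtsl3 reached 20 CPM in both groups. The others reached it in the members only and so entered through the group where they are high. Barx1 (chromosome 13, 48662998 to 48666507), a homeobox factor of joint and stomach mesenchyme, was at 65.1 CPM (62.1 to 68.1) and 15.1 CPM (13.6 to 16.7), a log2 ratio of 2.11. It was found in 138 members and 64 zero-Sox9 cells, and the primary library held 0.149 CPM. Nr5a2 (chromosome 1, 136842571 to 136960448), a nuclear receptor, was at 21.6 and 3.005 CPM, a log2 ratio of 2.85, with 0.112 CPM in the primary library. Eya2, a transcriptional coactivator, was at 20.1 and 2.69 CPM, a log2 ratio of 2.90.

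Ptn (chromosome 6, 36714929 to 36810220), the growth factor pleiotrophin of developing cartilage, was at 241 CPM in the members and 36.6 CPM in the zero-Sox9 cells, a log2 ratio of 2.72. Of its member UMIs 75.3% came from 10 cells, and the highest member reached 17029 CPM. Crispld1, a secreted protein, had a log2 ratio of 3.29 with 76.0% of its UMIs in 10 members. Tnfrsf11b, osteoprotegerin, the decoy that blocks bone resorption, was at 91.7 and 22.8 CPM, a log2 ratio of 2.01, and was found in 259 members. Adamtsl3, a matrix protein, was at 145 and 40.4 CPM, a log2 ratio of 1.85, and Cdh13, a cadherin, at 31.1 and 8.22 CPM, a log2 ratio of 1.92.

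Signals that steer skeletal progenitors differed in some ligands and inhibitors. Of 15 Wnt genes measured, 5 were higher and 0 lower, beside 3.98% and 3.47% of all genes compared. Of the 15, 3 had reached 10 CPM in the members only, among them Frzb and Wnt5b, which are 2 of the 5. Among the 12 at 10 CPM or more in both groups, 3 were higher. Sfrp2, a secreted Wnt inhibitor, was at 146 and 49.9 CPM, a log2 ratio of 1.55, Frzb, another one, at 13.5 and 4.78 CPM, Wnt5b at 10.7 and 3.08 CPM (1.80) and Wnt5a, a ligand of growing limbs, at 30.1 and 15.7 CPM (0.94), and Dkk3 at 64.7 and 39.3 CPM (0.72). The co-receptor Lrp6, the most abundant of the list, had a log2 ratio of 0.39. Of 11 FGF genes 2 were higher, Fgfr1 at 160 and 101 CPM and Fgf18, a growth factor of cartilage, at 15.5 and 8.82 CPM. Fgf18 had reached 10 CPM in the members only. Fgf7 was at 340 and 309 CPM. Of 23 TGF-beta and BMP genes 1 was higher, Bmp2 (0.96), and 1 lower, the receptor Bmpr1b (-0.70). Only 1 of these 2 was at 10 CPM or more in both groups. Both counts were near the shares over all genes compared, 3.98% higher and 3.47% lower. Of 3 Notch genes Notch1, which had reached 10 CPM in the members only, was higher (0.70), and Notch2 had a log2 ratio of 0.10. Of 14 YAP and TEAD genes 0 passed the fold in either direction, Tead1 having a log2 ratio of 0.19.

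Hypertrophic and bone genes differed in few members and in both directions. The counts below stand beside 3.98% higher and 3.47% lower over all genes compared. Of 4 measured hypertrophic and hedgehog genes, Ptch1, the hedgehog receptor and target, was higher at 39.3 and 24.2 CPM (log2 ratio 0.70), Mmp13, the collagenase of hypertrophic cartilage, was lower at 22.7 and 35.4 CPM (-0.64) and Mef2c had a log2 ratio of 0.12. The lower Mmp13 level turned to a log2 ratio of 0.24 when the groups were matched on depth, and 89.4% of its member UMIs came from 10 cells. Of 4 osteogenic genes 0 passed the fold, and Spp1, osteopontin, was at 7121 and 5923 CPM. In the tendon list Scx, the tendon factor that also acts in cartilage progenitors, was higher at 94.8 and 59.8 CPM (0.66), with 5 of 6 genes within 1.5-fold. Of 14 fibroblast and fibrillar collagen genes, Col1a2 (0.73) and Col6a3 (0.70) were higher and 12 lay within 1.5-fold, with Fn1, fibronectin, at 0.48. Of 11 stromal progenitor surface genes only Cdh2, N-cadherin, passed the fold, at 34.3 and 15.9 CPM (1.10), while Cd44 was at 280 and 408 CPM (-0.54).

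The niche genes split. Cxcl12 (ENSMUSG00000061353, chromosome 6, 117168535 to 117181367), the chemokine that holds blood stem cells in the marrow, was at 966 CPM (954 to 977) in the members and 478 CPM (469 to 487) in the zero-Sox9 cells, a log2 ratio of 1.02 (0.98 to 1.05). Its per-cell medians were 416 and 194 CPM. The 454 cells with the highest Cxcl12 share, which are 10% of all cultured cells, included 100 of the 454 members (22.0%, interval 18.3% to 26.1%). They also included 52 zero-Sox9 cells (8.23%, 6.21% to 10.7%), an interval that holds 10%. Foxc1, the factor that keeps Cxcl12-abundant reticular cells, was at 118 and 55.6 CPM, a log2 ratio of 1.09. Kitl, stem cell factor, was the other way, at 38.8 and 66.5 CPM (-0.78), and Grem1 was level at 996 and 1050 CPM. Of the 10 measured genes of the list 2 were higher and 1 lower, beside 3.98% and 3.47% over all genes compared. The overlap with the cells highest in Ly6a, which encodes Sca1, was 6.17% of the members (4.14% to 8.79%) and 12.3% of the zero-Sox9 cells (9.88% to 15.2%). These Ly6a cells too were 10% of all cultured cells.

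Of 11 contractile genes measured, 0 were higher, 6 were lower and 5 lay within 1.5-fold, with a median log2 ratio of -0.59. Of the 6, 5 were at 10 CPM or more in both groups. Acta2 (chromosome 19, 34241090 to 34255590), smooth muscle actin, was at 911 CPM (899 to 922) in the members and 1872 CPM (1855 to 1889) in the zero-Sox9 cells, a log2 ratio of -1.04. Tagln was at 976 and 1743 CPM (-0.84), Tpm2 at 428 and 781 CPM (-0.87) and Actg2 at 6.77 and 13.6 CPM (-1.01), while Cald1, the most abundant, was at 3230 and 2929 CPM (0.14). The Acta2 difference lay in the upper cells, since the per-cell medians were 199 and 253 CPM and the highest cells reached 12838 and 33641 CPM. Against all other cultured cells in place of the zero-Sox9 cells, the log2 ratio of Acta2 was -0.46, under the fold. At an equal 5000 UMIs per cell, Acta2 was found in 66.7% of the members and 65.3% of the zero-Sox9 cells.

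Genes of dividing cells were lower in nearly every case. Of 18 measured S phase genes 17 were lower (median log2 ratio -0.91), and of 24 G2M genes 24 were lower (-1.24). Among the genes at 10 CPM or more in both groups, 12 of 13 and 19 of 19 were lower. Rrm2, which makes DNA precursors, was at 14.5 and 52.6 CPM (-1.86), Clspn at 11.3 and 37.6 CPM (-1.73), Uhrf1 at 8.29 and 21.9 CPM (-1.40) and Hells at 16.3 and 36.2 CPM (-1.15). Among mitotic genes Hmmr was at 29.3 and 99.3 CPM (-1.76), Ccnb1, cyclin B1, at 11.6 and 38.6 CPM (-1.73), Cenpe at 26.3 and 86.8 CPM (-1.72), Cdc20 at 18.96 and 60.9 CPM (-1.68) and Mki67, the Ki-67 antigen, at 50.7 and 133 CPM (-1.39). Cells were taken as cycling when 5000 of their UMIs held 10 or more from either the S list or the G2M list, which applied to 41 of 454 members (9.03%, interval 6.56% to 12.1%), 146 of 632 zero-Sox9 cells (23.1%, 19.9% to 26.6%) and 14.1% of all cultured cells. Without cycling cells, which are defined by UMIs of these same genes, the log2 ratio was 0.21 for Mki67, 0.42 for Ccnb1, -0.36 for Clspn and -0.01 for Cdc20, while Rrm2 at -0.81 stayed past the fold. Of the 13 measured cell cycle inhibitors and p53 targets, Cdkn1c (0.67) and Gdf15 (0.94) were higher, beside 3.98% of all genes compared. Cdkn1a was at 556 and 545 CPM.

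The 12 lowest genes mixed several sources. All 12 had reached 20 CPM in the zero-Sox9 cells only, so they entered through the group where they are high. Pf4, Lyz2 and Mrc1, genes of macrophages and platelets, had log2 ratios of -7.06, -5.25 and -4.43. These values rested on few cells, as Pf4 had 1674 UMIs in 22 zero-Sox9 cells and 1 cell reached 15916 CPM. Without the 18 barcodes that carry at least 3 haematopoietic markers (6 zero-Sox9 cells and 2 members), a setting added after the values were seen, the log2 ratio was -0.68 for Pf4 and -1.04 for Lyz2. The haematopoietic list of 13 genes summed to 9.89 CPM in the members, 222 CPM in the zero-Sox9 cells and 9.77 CPM in the primary library. All 5 measured genes were lower, but all 5 had reached 10 CPM in the zero-Sox9 cells only. They thus entered through the group where they are high. Among them were Fcer1g at -5.34 and C1qb, with 3 UMIs in the members, at -7.07 (-9.35 to -5.51). Kif2c (-2.29), Ckap2l (-1.90), Rrm2 (-1.86) and Pimreg (-1.84) belong to cell division. Saa3, an acute phase protein, was at 10.9 and 111 CPM (-3.36), Angptl7 at 9.14 and 70.9 CPM (-2.96), Msln, mesothelin, at 6.52 and 33.1 CPM (-2.34), Mmp3, stromelysin, at 4.68 and 23.2 CPM (-2.31) and Hmcn1, hemicentin, at 15.1 and 53.7 CPM (-1.83).

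Markers of other cell types were low in both groups. The endothelial list summed to 3.08 CPM in the members and 2.25 CPM in the zero-Sox9 cells, the epithelial list to 2.37 and 1.19 CPM, the erythroid list to 2.37 and 2.49 CPM and the Schwann and neural crest list to 11.8 and 9.41 CPM, none with a gene at 10 CPM. The most abundant genes of these lists were Ramp2 with 52 and 18 UMIs, Krt18 with 57 and 25, Alas2 with 66 and 63 and Cdh19 with 173 and 40. In the skeletal muscle list Acta1, which had reached 10 CPM in the zero-Sox9 cells only, was lower, at 6.31 and 21.5 CPM (-1.77). Of 7 pericyte genes only Cspg4 reached 10 CPM, at 39.2 and 40.4 CPM. The Y-linked Ddx3y was at 106 and 97.1 CPM.

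**Figure D4:**
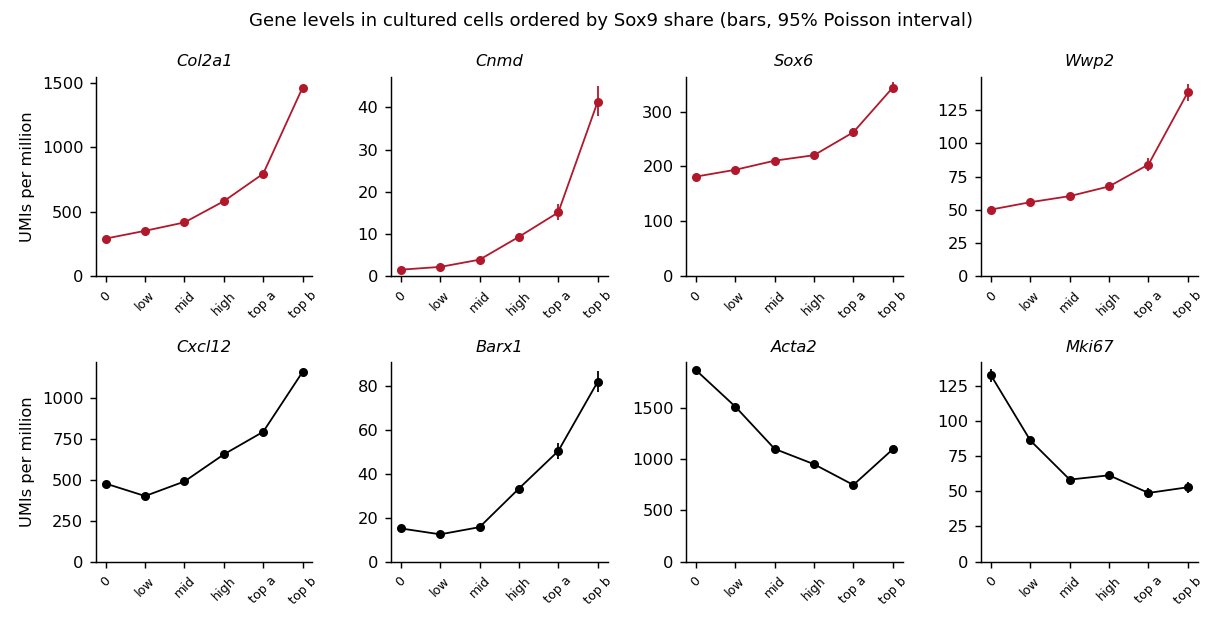
Levels of 8 genes (CPM, linear axes from 0, bars 95% Poisson intervals) are plotted in 6 groups of cultured cells, from 0 Sox9 UMIs through the lowest, middle and highest of 3 equal groups of the other cells to the members below (top a) and above (top b) their median Sox9 share. Col2a1, Cnmd, Sox6 and Wwp2 are higher in each group than in the one before, while Mki67 and Acta2 are highest at 0 Sox9 UMIs.

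The members were next set beside all steps of Sox9 level. The cells with a Sox9 UMI outside the members were split into 3 equal groups by Sox9 share, and the members into a lower and an upper group of 227 cells. Col2a1 was at 292, 352, 417 and 581 CPM from 0 Sox9 UMIs to the highest of the 3 groups and at 794 and 1462 CPM in the lower and upper members. Cnmd was at 1.54, 2.195, 3.91 and 9.33 CPM and then at 15.1 and 41.4 CPM. Acan was at most 1.77 CPM in the 4 groups outside the members and at 9.84 and 20.4 CPM within them. Sox6 ran from 181 to 344 CPM, Sox5 from 239 to 327 CPM and Wwp2 from 50.1 to 138 CPM.

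Other genes followed Sox9 less evenly. Cxcl12 was at 478 CPM in the zero-Sox9 cells, 402 CPM in the lowest group with Sox9 and 1163 CPM in the upper members. Ptn was between 36.6 and 87.5 CPM in the first 5 groups and at 420 CPM in the upper members. Acta2 was lower in each group, from 1872 CPM to 749 CPM in the lower members, and was at 1098 CPM in the upper ones. Mki67 was at 133 CPM without Sox9, between 58.4 and 86.2 CPM in the groups outside the members and at 48.9 and 52.9 CPM in the members. The cycling share was 23.1%, 17.1%, 11.8% and 10.5% outside the members and 9.69% and 8.37% in them. Gapdh, a glycolytic gene taken for reference, went from 1650 to 1195 CPM.

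**Figure D5:**
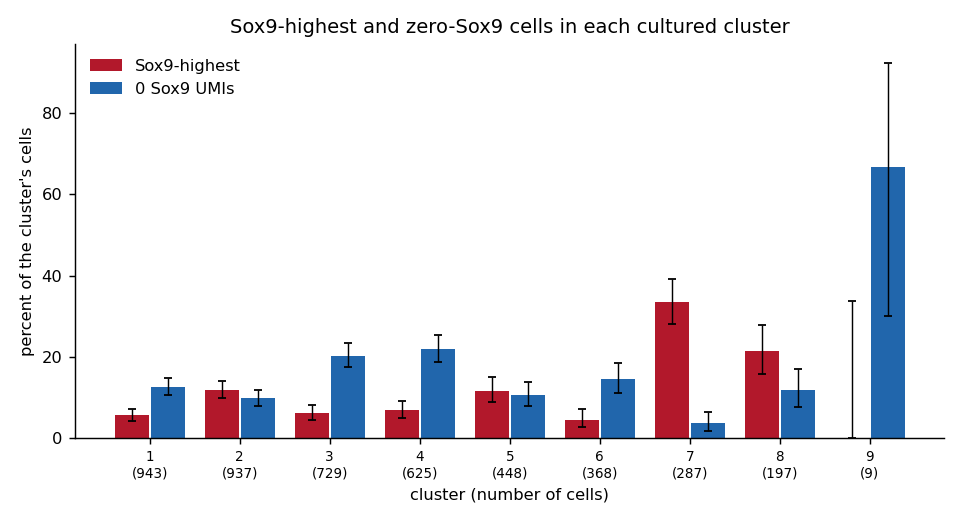
For each of 9 clusters of the cultured library, given by number with its cells in brackets, bars give the percent of its cells that were Sox9-highest (red) or held 0 Sox9 UMIs (blue), with exact 95% binomial intervals. Cluster 7, led by Nr5a2 and Barx1, has the highest share of members, 33.4% of 287 cells.

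The members were not 1 cluster. Clusters were built from the variable genes of the same cells, Sox9 left out, so these shares are a description. The 287 cells of cluster 7, led by Nr5a2, Barx1, Ptgis and Sfrp2, held 96 members (33.4%, interval 28.0% to 39.2%) and 10 zero-Sox9 cells (3.48%). Cluster 8, with 197 cells and Ptn and Thy1 among its leading genes, held 42 members (21.3%, 15.8% to 27.7%). Clusters 2 (led by Mmp13, Gdf10 and Comp) and 5 (led by Cytl1, Gpc3 and Piezo2) were at 11.7% and 11.6%, and cluster 2 gave the most members, 110 or 24.2% of them. The share was 6.04% in cluster 3, led by division genes such as Aspm and Mki67, 6.72% in cluster 4, led by Ly6a and Slpi, 5.51% in cluster 1 and 4.35% in cluster 6. Clusters 3 and 4 held the most zero-Sox9 cells among the large clusters, 20.2% and 21.9%.

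The comparison was repeated within clusters. Members and zero-Sox9 cells were compared in the 7 clusters with at least 20 and 10 of them, and for each gene only where both held more than 3 UMIs. Col2a1 was higher in the members in 7 of 7, with log2 ratios from 1.08 to 2.86, and Cnmd in 5 of 5, from 2.09 to 5.03. Wwp2 was higher in 7, from 0.43 to 2.21, and Foxc1 in 7, from 0.22 to 1.27. Sox6 was higher in 6, from -0.11 to 1.22. Col9a3 was higher in 3 of 3, from 2.66 to 4.32, and Acan in the 1 cluster with enough UMIs. Cytl1 was higher in 3 of 4, from -0.36 to 4.36. Cxcl12 was higher in 5, from -0.21 to 0.73, below its ratio of 1.02 over all cells. Barx1 was higher in 4 of 5, from -0.48 to 1.69, and Pax1 in 3 of 3. Acta2 and Tagln were lower in 6, the log2 ratios of Acta2 running from -2.81 to 0.73, and Mki67 was higher in 3 of 6, from -2.04 to 1.18.

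A small set of members carried several rare cartilage genes at once. With 11 such genes (Acan, Cnmd, Col9a1, Col9a2, Col9a3, Col11a2, Hapln1, Chad, Snorc, Matn1 and Matn3), a set put together after the values were seen, at least 5 were found in 28 members (6.17%, interval 4.14% to 8.79%), in 1 zero-Sox9 cell (0.158%) and in 42 of the 4089 cultured cells outside the members (1.03%, 0.741% to 1.39%). At an equal 5000 UMIs per cell at least 3 were found in 19 members (4.19%, 2.54% to 6.46%), in 1 zero-Sox9 cell and in 0.489% of the cultured cells outside the members (0.299% to 0.754%). No UMI of the 11 was found in 227 members, whose median depth was 41538 UMIs against 66050 in the 28.

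The 28 cells differed from the rest of the members in more than these genes. Col2a1 was at 3418 CPM (3337 to 3501) in them, at 1262 CPM in the 199 members with 1 to 4 of the genes and at 514 CPM in the 227 with none. Col11a1 was at 2275, 749 and 435 CPM, Sox6 at 562, 299.97 and 256 CPM, and Sox9 at 350.1, 282 and 255 CPM. Cxcl12 ran the other way, at 306 CPM in the 28 and at 1005 and 1028 CPM in the rest, and so did Barx1, at 8.19, 73.5 and 64.1 CPM, and Pax1, at 2.56, 20.2 and 17.4 CPM. Of the 28, 8 lay in cluster 2, 7 in cluster 8, 5 in cluster 3 and 1 in cluster 7, while cluster 7 held 96 of the members. The members of cluster 7 held the highest Col2a1 of the 7 clusters compared, 1833 CPM, together with the highest Barx1, Pax1 and Cxcl12, at 181, 51.7 and 2066 CPM.

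Because RNA outside cells also enters droplets, the levels were set beside those in cells of another type. The 9 cells of cluster 9, led by haematopoietic genes such as Pf4, C1qc and Tyrobp, had a median of 35946 UMIs, 6 of them being zero-Sox9 cells, and Sox9 was at 17.3 CPM (6.94 to 35.6) in them. Col2a1 was at 447 CPM (384 to 517) there and Col11a1 at 481 CPM (416 to 554), above the zero-Sox9 cells at 292 and 408 CPM. In the zero-Sox9 cells Col2a1 ran from 60.7 CPM in cluster 8 to 597 CPM in cluster 5, and the part of RNA outside cells in these levels was not tested. In the 227 members with none of the 11 rare genes Col2a1 was at 514 CPM (501 to 527) and Col11a1 at 435 CPM (423 to 447). In cluster 9 Cnmd was at 4.93 CPM (0.598 to 17.8) and Acan at 2.47 CPM (0.0625 to 13.7), on 2 and 1 UMIs. Cxcl12 was at 118 CPM and Acta2 at 274 CPM in cluster 9, below both Sox9 groups. In the 18 barcodes that carry at least 3 haematopoietic markers, Cxcl12 was at 124 CPM (106 to 143). Acta2 was at 917 CPM (868 to 968) in them, not below the 911 CPM of the members. At 5000 UMIs, Col2a1 was found in 76.7% of the members, 50.2% of the zero-Sox9 cells and 55.6% (21.2% to 86.3%) of cluster 9. Sox9 was found in 74.9% of the members and 11.1% (0.281% to 48.25%) of cluster 9. Since Sox9 chose the members, its share in them is only a description. The 5336 barcodes under 1000 UMIs, which are below the filter, held 67.0 CPM of Sox9, 341 CPM of Col2a1 and 435 CPM of Col11a1. They held 5.92 CPM (3.83 to 8.74) of Cnmd, between the 1.54 CPM of the zero-Sox9 cells and the 27.3 CPM of the members. Cxcl12 was at 584 CPM in them, above the zero-Sox9 cells, and Acta2 at 1284 CPM, above the members. The part of RNA outside cells in these levels too was not tested.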

How the data were processed

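Per the labels and the study's methods, libraries were made with a 10x Chromium kit for 3′ ends (v3.1) and the deposited values are UMI counts per gene and barcode made by the authors with Cell Ranger 7.0.0. The processing notes name mm10, GRCm38 and GRCm39, and the study's methods mm10. The deposited counts are whole numbers without normalisation, 336427977 UMIs over 10798 barcodes in the cultured and 137359014 over 11896 in the primary library. Of the cultured barcodes, 6255 failed the cell filter, most of them under 5000 UMIs. Annotation came from GENCODE M21 (GRCm38) by gene ID.

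Counts were summed per group and scaled to CPM, and counts under 3 were raised to 3 in ratios. Intervals are exact Poisson, Clopper-Pearson or conditional binomial ones. The members, the 32 gene lists and the rules were chosen with earlier results of these data known. Named genes were all genes of the 3 cartilage lists. Each other list gave up to 4 genes with at least 10 CPM in either group and 1.5-fold, and its most abundant gene. The 12 highest and 12 lowest genes at 20 CPM or more in either group were named too. Their direction was the same with each cell weighing the same and after depth matching, and mitochondrial and ribosomal protein genes were left out. Genes of steps, clusters and cell sets were added after their values were seen. Equal depth means cells thinned to 5000 UMIs. Clusters came from scanpy 1.11.5 and leidenalg 0.10.2 at resolution 0.5 on 20 neighbours, 10 components and 2000 variable genes, less Sox9. Some leading genes of 1 cluster are not reported here. Scrublet called 3 of 4543 cells and had not worked, so doublets were kept, and an alternative left out the 392 of highest score. TMM factors came from edgeR 4.0.16. The ratios and intervals were tested on simulated sums drawn without variation between cells, so that test covers counting error only.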

Additional observations from a re-analysis of the deposited data

How the results depend on the processing

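Both groups came from 1 library, so no replicates exist and no paired analysis was possible. The 655 genes at least 1.5-fold apart became 358 against all other cultured cells, 418 without cycling cells (301 higher, 117 lower), 1623 with at least 1 CPM, 212 with at least 50 CPM and 263 at 2-fold. The cartilage matrix median log2 ratio, 1.04 over 23 genes in the main setting against 0.05 for all genes, became 1.42 with groups matched on UMIs per cell, 1.41 for the top 5%, 0.59 for the top 20%, 1.88 with at least 1 CPM, 0.15 over the 7 genes with at least 50 CPM and 0.72 without the 10 members richest in cartilage UMIs, the last added once the values were known. Of its 23 genes, 11 reached 10 CPM in the members only. The cycling share of the members became 14.8% with at least 5 UMIs. The other alternatives of these results stayed within 1.5 times of the main count or within its interval. TMM scaling moved the median of all genes by -0.06.

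Of 81 named genes at least 1.5-fold apart, 7 changed sign in 1 or more of 14 alternatives. The log2 ratio of Mmp13 went to 0.24 after depth matching and to 0.0194 against all other cells. Without cycling cells, Uhrf1 went to 0.24, Hells to 0.0837, Hmmr to 0.21, Ccnb1 to 0.42, Cenpe to 0.20 and Mki67 to 0.21. Counted by setting, genes of the 81 came under 1.5-fold most often against all other cells (21) and without cycling cells (16), then for the top 20% (12), and 0 did so without the 10 members richest in cartilage UMIs. There the log2 ratio of Col9a1 was 1.92, of Cytl1 1.23, of Cnmd 3.34 and of Acan 3.60. With 1 library of each kind, differences between animals, cultures and runs could not be estimated, and genes under about 10 CPM rest on few UMIs.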

Other observations

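Genes at an imprinted locus of chromosome 7 were among those higher in the members. Peg3 (ENSMUSG00000002265, chromosome 7, 6703892 to 6730431), a paternally expressed zinc-finger gene, was at 552 CPM (544 to 561) in the members, 169 CPM (164 to 175) in the zero-Sox9 cells and 1108 CPM in the primary library, a log2 ratio of 1.70. It was found in 409 members, and at 5000 UMIs in 59.5% of the members and 33.5% of the zero-Sox9 cells. Its neighbours were higher too, Zim1 at 22.8 and 6.41 CPM (1.83) and Usp29 at 10.3 and 3.68 CPM (1.48). Within 7 clusters Peg3 was higher in the members in 7, with log2 ratios from 0.16 to 3.28. Of 15 measured genes of a list of imprinted genes put together after Peg3 had been seen, 5 were higher and 2 lower. The higher ones were Peg3, Zim1, Usp29, Plagl1 (0.87) and Cdkn1c (0.67), and the lower ones Igf2 (-0.84) and Dlk1 (-0.76). Since Peg3 had prompted the list, and Zim1 and Usp29 reached 10 CPM in the members only, the count is a description. Over all genes compared, 3.98% were higher and 3.47% lower. The median of this list was 0.13.

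Some further genes were noticed among the highest ones, after their values were seen. Igf1, the growth factor, was at 117 and 39.3 CPM (1.58) and at 6.77 CPM in the primary library. Npr3, the natriuretic peptide clearance receptor, was at 173 and 55.0 CPM (1.65) and at 3.07 CPM in the primary library. Foxd1, a forkhead factor, was at 28.5 and 8.30 CPM (1.78). The list counts that follow are of few genes each and are a description, beside 3.98% higher and 3.47% lower over all genes compared. Of 17 immediate early genes, Dusp1 (0.66) and Klf4 (0.61) were higher and 0 lower, with Jund, the most abundant, at 0.45. Of 12 hypoxia and glycolysis genes Vegfa was higher (0.61) and Ldha was at 644 and 760 CPM, and of 10 heat shock and ER stress genes 0 passed the fold, Hspa8 being at 947 and 1153 CPM. Of 12 Hox genes Hoxa9 (0.82) and Hoxa2 (0.77) were higher, and both had reached 10 CPM in the members only. Of the 8 at 10 CPM or more in both groups 0 passed the fold, with Hoxc8 at 184 and 162 CPM. Of 4 adipogenic genes Fabp4 (-0.69) and Plin2 (-0.61) were lower, and Cebpb was at 300.3 and 303 CPM.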
